A study of Homo sapiens with 18 samples.

Results

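The genes described are 10 secreted members and inhibitors of the transforming growth factor-beta (TGF-β) superfamily, out of 50119 genes listed. They were taken by name: the ligands BMP2, BMP4, INHBA, INHBB, TGFB1, TGFB2 and TGFB3, and the inhibitors GREM1, LEFTY1 and FST. Within this family they were chosen by their measured expression in the cultures relative to fresh tumor tissue in earlier comparisons of these data, so their levels against that tissue are given as a description with no test, and tests are given only for comparisons between the other groups. By the labels and the study's methods, all samples came from Saos-2 (spelled Soas-2 in the labels), an established human osteosarcoma (OS) cell line. Its genotype is given as WT. The 6 groups had 3 libraries each. D-2 was grown as 2D cells, D-3 as 3D cells in Matrigel, and DP-3 as tissue printed from cells in a bioink of methacrylated gelatin and alginate, all for 14 days. FIT was fresh tumor tissue from female BALB/c nude mice, in which Saos-2 cells had been placed under the skin with Matrigel 2 weeks earlier, and IT was tissue isolated from such a tumor and then kept in culture for 14 days. By the study's methods, the excised tumor was divided, part for this culture and the rest for fresh tissue. IT and FIT libraries may therefore share tumors, the labels do not say which, and they were fitted as independent groups. DP-3 day 1 was the printed tissue after 1 day. Nude mice lack mature T cells but keep other host cells, and neither the labels nor the methods say whether the replicates were separate cultures or animals, so the p-values measure only the spread between these libraries.

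Ligands of this family are made as precursors and secreted as dimers. They bind pairs of serine/threonine kinase receptors, which phosphorylate SMAD1, SMAD5 and SMAD9 for bone morphogenetic proteins (BMPs), and SMAD2 and SMAD3 for TGF-β and activins. Outside the cell, secreted proteins hold ligands back: gremlin and noggin bind BMPs, follistatin binds activins, LEFTY proteins block nodal signaling, and a latency peptide keeps TGF-β inactive in the matrix. In bone, BMP2 and BMP4 drive osteoblast differentiation, while TGF-β is stored in the matrix in large amounts.

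Library totals ran from 50327345 to 79082786 estimated counts in 17 libraries, and FIT replicate 3 had 23721666. About 4 estimated counts were taken to stand for 1 read pair. A gene with 12 counts or fewer was treated as not detected above the limit, a floor that accounts for counting error alone. Of the 10 osteoblast lineage markers, SP7 and IBSP stayed below 0.1 FPKM (fragments per kilobase of transcript, scaled for depth) in all 18 libraries and ALPL did not exceed 0.148 FPKM, while SPARC lay between 111 and 289 FPKM. The name of the cell line rests on the labels and the study's methods, and its identity was not tested. Sums of fibroblast and muscle markers, cell types a host could add, were highest in FIT, but single markers differed. The markers are human genes and the host was a mouse, so host RNA counts here only through reads that aligned to human genes. These sums therefore do not measure how many host cells were present. Summed FPKM of the 8 fibroblast markers was 27.7 to 39.8 in FIT and 9.33 to 25.8 elsewhere. In FIT, 4 of 8 had a mean of at least 1 FPKM, and DCN and MFAP5 were below 0.1 FPKM. PDGFRA and PDGFRB made up most of this sum in every group. LUM was lower in FIT (0.194 to 0.405 FPKM) than in D-3 (0.715 to 0.747). FIT replicate 3 differed from FIT replicates 1 and 2. It had COL3A1 at 3.94 FPKM against 0 and 0.0516, and DPT at 4.26 against 0.322 and 0.729. PDGFRA went the other way, at 12.6 against 24.3 and 28.3. The 8 skeletal muscle markers summed to 0.923 to 5.32 FPKM in FIT and at most 0.542 elsewhere, with CKM and MYL1 below 0.1 FPKM in FIT. The highest muscle sum was in FIT replicate 3, where MYH2 had 3.61 FPKM against 0.0692 and 0 in FIT replicates 1 and 2. The 7 keratinocyte markers found summed to 27.4 to 57.2 FPKM in FIT and at most 30.9 elsewhere (KRT1, KRTDAP and DSG3 below 0.1), and the 8 endothelial markers to 5.53 to 9.39 FPKM in FIT and at most 8.24 elsewhere (VWF and KDR below 0.1). The 8 macrophage and leukocyte markers summed to 20.1 to 56.3 FPKM in FIT and 43.2 to 117 elsewhere, with PTPRC and AIF1 below 0.1 FPKM in every group. CD68 made up most of this sum, and KRT10 most of the keratinocyte sum, in every library. The part of host RNA in the levels below was not tested, and in bulk RNA fewer cells of a type and less RNA per cell cannot be told apart.

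BMP2 (ENSG00000125845, chr20:6767686-6780246, plus strand), an inducer of osteoblast differentiation, was lowest in D-2 and highest in FIT. Its FPKM was 0.587, 0.814 and 0.533 in D-2, and 1.31, 1.51 and 0.923 in D-3. In DP-3 it was 1.99, 1.61 and 1.54, and in IT 1.80, 0.858 and 2.31. The FIT libraries had 5.15, 4.44 and 3.48 FPKM, and DP-3 day 1 had 1.01, 1.13 and 0.790. All 15 libraries of the other groups lay below the lowest FIT library. Mean BMP2 in FIT was 6.76-fold that in D-2, 3.49-fold that in D-3, 2.54-fold that in DP-3, 2.63-fold that in IT and 4.46-fold that in DP-3 day 1. Among the groups under FIT, neighbors in the order DP-3, IT, D-3, DP-3 day 1 and D-2 overlapped in their libraries.

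The printed tissue gained BMP2 with time. From day 1 to day 14, the DP-3 libraries moved from 0.790 to 1.13 FPKM up to 1.54 to 1.99 FPKM with no overlap, a log2 fold change of 1.08 ± 0.22 (SE, adjusted p = 0.0152). DP-3 also had more BMP2 than D-2, with a log2 fold change of 1.38 ± 0.23 (adjusted p = 0.0386) and no overlap. In IT against D-2 the log2 fold change was 1.18 ± 0.40 (adjusted p = 0.0720), and in D-3 against D-2 it was 0.70 ± 0.30 (adjusted p = 0.106), so neither passed by edgeR's quasi-likelihood test. BMP2 in IT against D-2 did pass with DESeq2 (adjusted p = 0.0158), with 1 fit of all 18 libraries (adjusted p = 0.00987) and without IT replicate 2 (1.52, adjusted p = 0.0239). The call over time was lost with limma, with an FPKM minimum of 1, and without DP-3 replicate 1 (log2 fold change 0.97), DP-3 day 1 replicate 1 (adjusted p = 0.0565) or DP-3 day 1 replicate 3 (adjusted p = 0.0596). The call against D-2 was lost with limma on log2(FPKM + 1), was kept among fits without 1 library only without DP-3 replicate 3, and without each of the other 5 libraries the adjusted p was 0.0679 to 0.158.

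BMP4 (ENSG00000125378, chr14:53949736-53958761, minus strand), a close relative with the same receptors, was also highest in FIT but lowest in D-3 rather than D-2. Its FPKM was 1.59, 2.52 and 1.41 in D-2, and 1.21, 0.637 and 0.731 in D-3. In DP-3 it was 1.56, 1.70 and 2.27, and in IT 2.02, 1.98 and 1.56. The FIT libraries had 5.06, 3.54 and 12.6 FPKM, and DP-3 day 1 had 1.18, 0.942 and 1.14. Every library outside FIT was below every FIT library. FIT replicate 3 held the highest value. It was the shallow library and also differed from FIT replicates 1 and 2 in the fibroblast and muscle markers above. The fold of the FIT mean over D-2, D-3, DP-3, IT and DP-3 day 1 was 3.83, 8.22, 3.82, 3.80 and 6.48 with that library. Without that library the folds were 2.33, 5.01, 2.33, 2.32 and 3.95. The libraries of IT, DP-3 and D-2 overlapped, and D-2 and DP-3 day 1 did not.

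D-3 had less BMP4 than D-2, with a log2 fold change of -1.35 ± 0.35 (adjusted p = 0.0221) and no overlap. The printed tissue had more BMP4 than D-3 on day 14 (log2 fold change 1.33 ± 0.35, adjusted p = 0.0392) and more than on its own day 1 (1.03 ± 0.24, adjusted p = 0.0238), again with no overlap. Against D-2 the values of DP-3 and IT did not pass and had no stable direction, -0.02 ± 0.28 (adjusted p = 0.977) and -0.16 ± 0.28 (adjusted p = 0.707). IT against D-3 did not pass at 1.18 ± 0.35 (adjusted p = 0.338) and did with DESeq2 (adjusted p = 0.0218), and its 3 libraries lay above those of D-3. The call for D-3 against D-2 was lost with limma on log2(FPKM + 1) and without D-2 replicate 2 (adjusted p = 0.0798) or D-3 replicate 3 (adjusted p = 0.0791). That for DP-3 against D-3 was lost with limma and without any 1 of its 6 libraries (adjusted p = 0.0570 to 0.145), and that over time with limma, an FPKM minimum of 1, 1 fit of all 18 libraries, and without DP-3 replicate 3 (log2 fold change 0.81) or any 1 of the DP-3 day 1 libraries (adjusted p = 0.0698 to 0.0936).

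**Figure D1:**
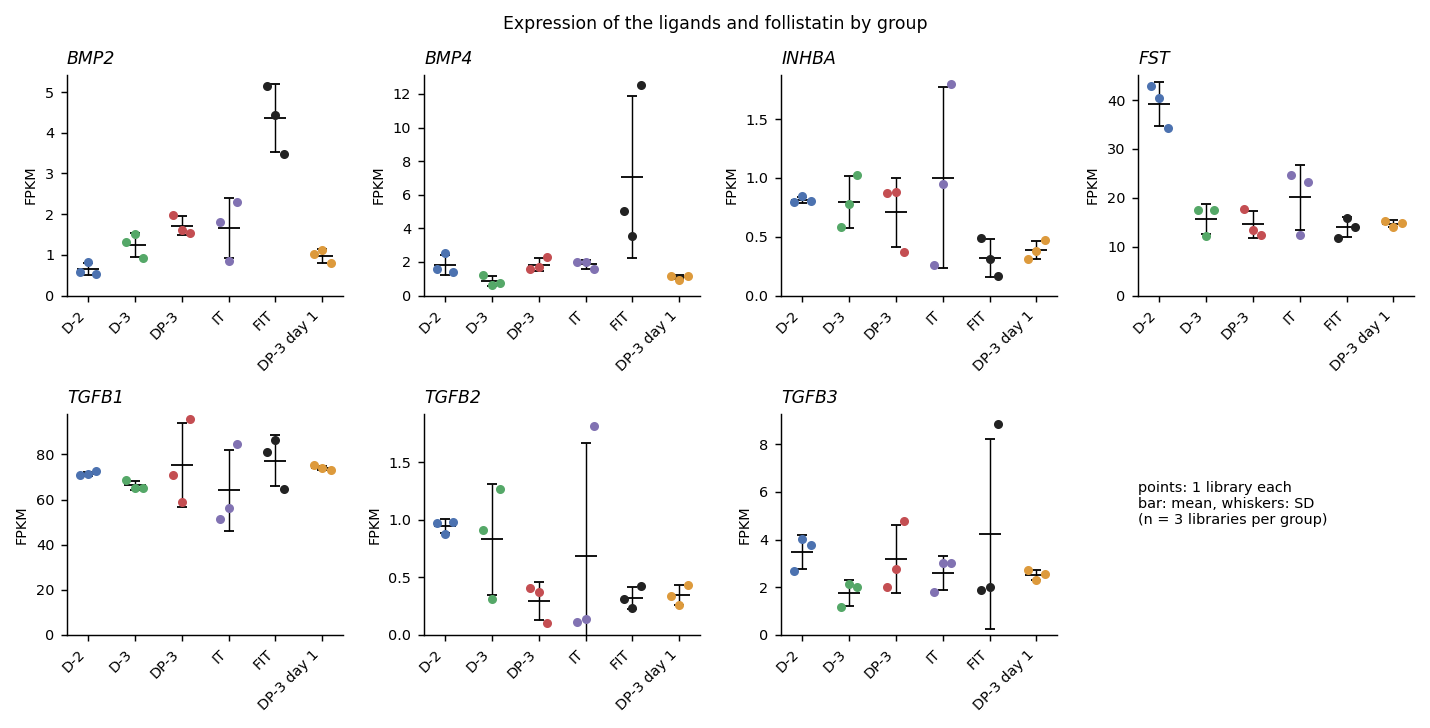
FPKM of the 7 genes above the detection limit in the 6 groups; each point is 1 library, the bar is the mean and the whiskers the SD of 3 libraries (the lower whisker of TGFB2 in IT runs below 0 and is not drawn there). BMP2 and BMP4 were highest in all 3 FIT libraries, FST was highest in D-2, and TGFB1 stayed between 51.2 and 95.5 FPKM.

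The balance of the 2 BMP genes differed between 2D and 3D cells. The ratio of BMP4 to BMP2 FPKM within a library was 2.72, 3.09 and 2.65 in D-2 and 0.920, 0.422 and 0.793 in D-3, so D-2 held more BMP4 and D-3 more BMP2 in each library. In DP-3 the ratio was 0.784, 1.06 and 1.47, in IT 1.12, 2.31 and 0.677, and in DP-3 day 1 1.17, 0.836 and 1.44, so these groups held libraries on both sides of 1. FIT replicates 1 and 2 had 0.982 and 0.796, while FIT replicate 3 had 3.61. The genes whose log2(FPKM + 0.1) followed BMP2 most closely over the 18 libraries were PLA2R1 (r = 0.897), a receptor of secreted phospholipases, SCG2 (r = 0.881), a secretogranin, and SNTB1 (r = 0.876), a syntrophin. For BMP4 they were BNC2 (r = 0.892), a zinc finger gene, PCOLCE (r = 0.882), which enhances the cutting of procollagen, and AL158801 (r = 0.868). These correlations are descriptions over libraries that fall into 6 groups of 3, with FIT high for the 2 genes.

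The inhibitors LEFTY1 and GREM1 and the activin subunit gene INHBB were scarce, and none of them reached the level needed for testing in a comparison without FIT. GREM1 (ENSG00000166923, chr15:32718004-32734583, plus strand), which encodes the BMP antagonist gremlin, was seen mainly on day 1 of the printed tissue. It had 40, 19 and 46 estimated counts in DP-3 day 1 and 0 counts in all 3 libraries of DP-3 and of FIT. D-2 had 4 counts in each library, D-3 had 0, 16 and 0, and IT had 4, 0 and 23. Only the day 1 group was above the limit of 12 counts in all 3 libraries. Its mean of 0.691 CPM (counts scaled to the library total) against the mean limit of 0.174 CPM in DP-3 was at least 3.98-fold higher. More genes reached 0.1 FPKM in the day 1 libraries (24694 to 24791) than in DP-3 (18664 to 19249) or in any other library (at most 22322). Of 20774 genes tested over time in printed tissue, 7319 were lower on day 14 with no overlap, and GREM1 was too scarce to be among those tested. The gene overlaps AC090877.2 on the other strand, and the sources used here do not state whether strand was used in counting.

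LEFTY1 (ENSG00000243709, chr1:225886282-225911382, minus strand) had 35, 139 and 8 estimated counts in FIT, the last in the shallow library and below the limit. DP-3 day 1 had 12, 19 and 0 counts, and no library of D-2, D-3, DP-3 or IT exceeded 12. The gene overlaps AL117348.2 on its own strand and has a near copy in LEFTY2, so its reads may be split between them. INHBB (ENSG00000163083, chr2:120346136-120351803, plus strand), which encodes the βB subunit of activin B and inhibin B, had 61, 43 and 16 counts in FIT. Elsewhere only D-2 replicate 2 with 41 counts, DP-3 replicate 1 with 23 and DP-3 day 1 replicate 3 with 17 were above the limit. On the FPKM scale all INHBB values outside FIT, up to 0.144, were below the lowest in FIT, 0.167.

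**Figure D2:**
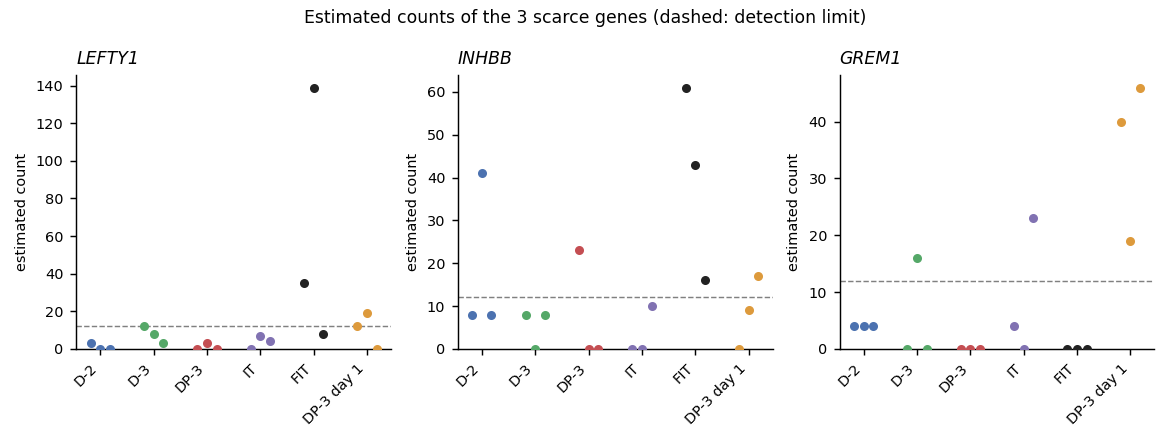
Estimated counts of LEFTY1, INHBB and GREM1; each point is 1 library and the dashed line is the limit of 12 counts. LEFTY1 and INHBB exceeded the limit in 2 and 3 of the FIT libraries, and GREM1 was at 0 in FIT and on day 14 of DP-3 but above the limit in all 3 libraries of day 1.

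TGFB1 (ENSG00000105329, chr19:41301587-41353922, minus strand) was by far the most abundant ligand gene. It made up 71.4% to 93.4% of the summed FPKM of the 8 ligand genes, LEFTY1 included, with the lowest share in FIT replicate 3. Its FPKM was 70.8, 71.1 and 72.5 in D-2, 68.6, 65.2 and 65.0 in D-3, and 75.1, 73.8 and 73.2 in DP-3 day 1. In DP-3 it was 71.1, 58.9 and 95.5, in IT 51.2, 56.3 and 84.6, and in FIT 81.0, 86.3 and 64.5. FIT, DP-3 and IT overlapped with all other groups, while D-3, D-2 and DP-3 day 1 did not overlap with each other. DP-3 day 1 lay above D-2 in FPKM, but below it in CPM with edgeR's TMM scaling (257 to 264 against 310 to 317), so this order depends on the scaling. Over the 18 libraries the coefficient of variation of TGFB1 FPKM was 15.3%, and 12.7% of genes with a mean of at least 1 FPKM had a lower one. D-3 lay below D-2 in each library, with a log2 fold change of -0.36 ± 0.09 (adjusted p = 0.0189), which is under the fold of 2 set for DEGs. The gene overlaps HNRNPUL1, CCDC97 and TMEM91 on the other strand.

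TGFB2 and TGFB3 encode the other TGF-β isoforms, which bind the same receptors. TGFB2 (ENSG00000092969, chr1:218345336-218444619, plus strand) had 0.977, 0.874 and 0.982 FPKM in D-2, 0.914, 0.309 and 1.27 in D-3, and 0.405, 0.377 and 0.0999 in DP-3. In IT it had 0.108, 0.137 and 1.82 FPKM, in FIT 0.313, 0.233 and 0.424, and in DP-3 day 1 0.339, 0.261 and 0.434. All D-2 libraries were above all of DP-3, FIT and DP-3 day 1, and IT replicate 3 held the highest value of all while the other IT libraries were among the lowest. The ratio of TGFB1 to TGFB2 FPKM therefore ran from 46.6 in IT replicate 3 to 956 in DP-3 replicate 3, and within D-2 it was 72.5 to 81.4. By edgeR's quasi-likelihood test DP-3 against D-2 did not pass at -1.72 ± 0.46 (adjusted p = 0.0940). It passed without DP-3 replicate 3, at -1.32 (adjusted p = 0.0306), and with DESeq2 (adjusted p = 0.00167). No other comparison passed for TGFB2 by edgeR's quasi-likelihood test.

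TGFB3 (ENSG00000119699, chr14:75958097-75981995, minus strand) had 2.67, 4.01 and 3.76 FPKM in D-2, 1.15, 2.13 and 2.00 in D-3, and 2.02, 2.78 and 4.76 in DP-3. IT had 1.79, 3.03 and 3.02 FPKM, DP-3 day 1 had 2.70, 2.31 and 2.54, and FIT had 1.87, 2.01 and 8.85. The last value belongs to FIT replicate 3, the shallow library that also differed in fibroblast and muscle markers. Without it the FIT mean falls from 4.24 to 1.94 FPKM and the order against D-2, DP-3, IT and DP-3 day 1 turns. D-3 had less TGFB3 than D-2, with no overlap and a log2 fold change of -1.23 ± 0.27 (adjusted p = 0.0133). This call was lost with limma, with 1 fit of all 18 libraries and, among fits without 1 library, without D-3 replicate 1, where the log2 fold change was -0.97. DP-3 against D-3 did not pass by edgeR's quasi-likelihood test at 1.09 ± 0.38 (adjusted p = 0.0894), and did with DESeq2 (adjusted p = 0.0214). TGFB2 overlaps TGFB2-AS1, and TGFB3 overlaps IFT43 and TGFB3-AS1, on the other strand.

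The 3 isoform genes differ in level and in spread, and the 250 bases before their starts are shown to set this beside their sequence. The windows come from RefSeq on GRCh38.p14 and adjoin the gene starts in the deposited annotation, at chr19:41353923-41354172 (minus strand) for TGFB1, chr1:218345086-218345335 (plus strand) for TGFB2 and chr14:75981996-75982245 (minus strand) for TGFB3. They read 5′ to 3′ in the direction of the gene, and capitals mark the GC box GGGCGG and the TATA box TATAAA on either strand.
TGFB1: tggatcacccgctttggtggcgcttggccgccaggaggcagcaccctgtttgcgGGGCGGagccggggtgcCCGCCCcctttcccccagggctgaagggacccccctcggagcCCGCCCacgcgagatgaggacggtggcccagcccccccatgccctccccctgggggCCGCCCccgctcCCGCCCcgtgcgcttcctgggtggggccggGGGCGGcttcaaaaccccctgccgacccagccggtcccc
TGFB2: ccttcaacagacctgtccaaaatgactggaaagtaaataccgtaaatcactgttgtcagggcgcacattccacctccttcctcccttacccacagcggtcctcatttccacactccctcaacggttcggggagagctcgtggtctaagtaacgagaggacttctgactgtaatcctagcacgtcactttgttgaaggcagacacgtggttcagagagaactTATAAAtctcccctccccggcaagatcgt
TGFB3: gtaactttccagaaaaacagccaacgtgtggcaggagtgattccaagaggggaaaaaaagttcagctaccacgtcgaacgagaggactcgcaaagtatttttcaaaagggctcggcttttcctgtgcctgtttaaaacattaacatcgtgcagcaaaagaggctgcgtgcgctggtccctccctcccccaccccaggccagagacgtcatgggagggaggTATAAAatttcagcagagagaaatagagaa
The TGFB1 window held 6 GC boxes and no TATAAA at 76.8% GC. Those of TGFB2 (50.4% GC) and TGFB3 (49.2% GC) each held 1 TATAAA and no GC box. Among 35114 windows of this length, 42.6% held GGGCGG and 10.7% held TATAAA. RefSeq lists another start for TGFB3 that lies apart from the deposited one, and the TGFB2 and TGFB1 windows overlap exons of TGFB2-AS1 and TMEM91. The matches describe letters and say nothing of which factor acts there.

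INHBA (ENSG00000122641, chr7:41667168-41705335, minus strand) encodes the βA subunit, which forms activin A. Its FPKM was 0.795, 0.842 and 0.803 in D-2, and 0.586, 0.774 and 1.03 in D-3. DP-3 had 0.873, 0.879 and 0.366. In IT it was 0.260, 0.950 and 1.80, in FIT 0.490, 0.307 and 0.162, and in DP-3 day 1 0.312, 0.377 and 0.470. All libraries of D-2 and D-3 were above those of FIT and of DP-3 day 1, whereas IT spread from near the lowest value to the highest. DP-3 on day 14 against day 1 had a log2 fold change of 1.12 ± 0.35 and did not pass by edgeR's quasi-likelihood test (adjusted p = 0.0600). It passed with DESeq2 (adjusted p = 0.00882) and with no filter (adjusted p = 0.0448). Without DP-3 replicate 3 it was 1.40 and passed (adjusted p = 0.00948). The genes most like INHBA were USP12 (r = 0.885), a deubiquitinase, WWC1 (r = 0.813), a regulator of the Hippo pathway, and RPL9P7 (r = 0.813), whose reads may be shared with other copies of RPL9. The gene overlaps INHBA-AS1 on the other strand.

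FST (ENSG00000134363, chr5:53480626-53487134, plus strand) encodes follistatin, which binds activins and blocks them. It was high in 2D cells and lower in every other group. Its FPKM was 42.9, 40.4 and 34.2 in D-2, 17.4, 12.1 and 17.5 in D-3, and 17.7, 13.5 and 12.5 in DP-3. In IT it was 24.7, 12.3 and 23.2, in FIT 11.8, 15.9 and 14.1, and in DP-3 day 1 15.3, 13.95 and 14.9. The D-2 libraries did not overlap with any other group, and the other 5 groups overlapped with their neighbors in the order IT, D-3, DP-3 day 1, DP-3 and FIT. FST was called lower than in D-2 in D-3 (log2 fold change -1.57 ± 0.17, adjusted p = 0.00206), DP-3 (-1.46 ± 0.15, adjusted p = 0.0148) and IT (-1.14 ± 0.26, adjusted p = 0.0241). These comparisons share the 3 D-2 libraries. The call in D-3 was kept in all 6 fits without 1 library. That in DP-3 was lost without any 1 of the D-2 libraries (adjusted p = 0.0516 to 0.0794), and that in IT without any 1 of them (adjusted p = 0.0569 to 0.0815) or without IT replicate 2 (log2 fold change -0.86), and with limma on log2(FPKM + 1) or an FPKM minimum of 1.

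FST exceeded INHBA in every library. The ratio of FST to INHBA FPKM was 54.0, 48.0 and 42.6 in D-2 and 29.8, 15.6 and 17.03 in D-3, so D-2 lay above D-3. In DP-3 it was 20.2, 15.3 and 34.1 on day 14 and 49.1, 37.1 and 31.6 on day 1. IT replicates 2 and 3 had 13.0 and 12.9 while IT replicate 1 had 94.8, and FIT ranged from 24.1 to 86.8.

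**Figure D3:**
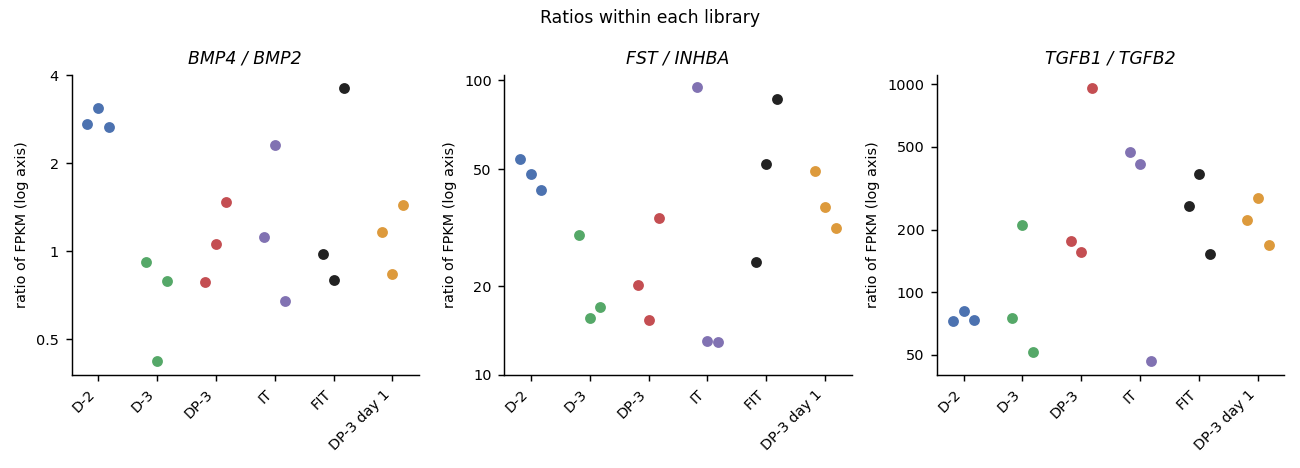
Ratios of FPKM within each library for BMP4 to BMP2, FST to INHBA and TGFB1 to TGFB2 on log axes; each point is 1 library. The BMP4 to BMP2 ratio was above 2.6 in all 3 D-2 libraries and below 1 in all 3 D-3 libraries, and IT held both the highest and the lowest FST to INHBA ratio.

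Over the comparisons without FIT, 7 of the 10 genes could be tested in each of the 7, and 9 of these 49 tests gave a call, meaning an adjusted p below 0.05 and a fold change of at least 2. D-3 against D-2 had 3 calls (BMP4, TGFB3 and FST, all lower) where 18.5% of all genes tested were called, and the libraries were apart for 5 of the 7 genes beside 53.2% of all genes. DP-3 against D-2 had 2 calls (BMP2 higher, FST lower) beside 1.04%, and libraries apart for 3 genes beside 30.9%. IT against D-2 had 1 call (FST lower) beside 12.7%, and libraries apart for 2 genes beside 48.8%. In DP-3 against D-3 the 1 call was BMP4, higher, beside 9.12%, and 2 genes were apart beside 39.7%. Over time in the printed tissue the 2 calls were BMP2 and BMP4, both higher, beside 7.56%, and the same genes were the 2 apart, beside 45.2%. Being apart was no more frequent among the 7 genes than among all genes in the last 3 of these comparisons, and the genes apart in D-3 against D-2 included BMP2, TGFB1 and the 3 calls.

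IT against D-3 had 0 calls beside 0.0461% of all genes by edgeR's quasi-likelihood test, and 1 gene apart beside 15.7%. There 1 gene (BMP4) had an unadjusted p under 0.05, beside 1932 of 21702 for all genes. DESeq2 gave 1 call (BMP4) and limma on log2(FPKM + 0.1) gave 0, beside 529 and 14 for all genes. IT against DP-3 had 0 calls beside 1.5% of all genes, and 0 genes apart beside 33.7%. There 0 had an unadjusted p under 0.05, beside 5005 of 20180 for all genes. DESeq2 and limma on log2(FPKM + 0.1) gave 0 calls, beside 1818 and 530 for all genes. Against FIT, 9 of the 10 genes passed the filter, LEFTY1 and INHBB only through FIT itself. BMP2, BMP4, LEFTY1 and INHBB lay below FIT in all libraries of each day 14 culture, beside 31% of all genes tested for D-2, 11.9% for D-3, 21.6% for DP-3 and 9.49% for IT. INHBA, TGFB2 and FST in D-2 and INHBA in D-3 lay above FIT in all libraries, beside 18.9% and 20.5% of all genes, and none did in DP-3 or IT, beside 12.5% and 11.1%. Nothing is read from these last counts, since the comparison with FIT entered the choice of genes.

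**Figure D4:**
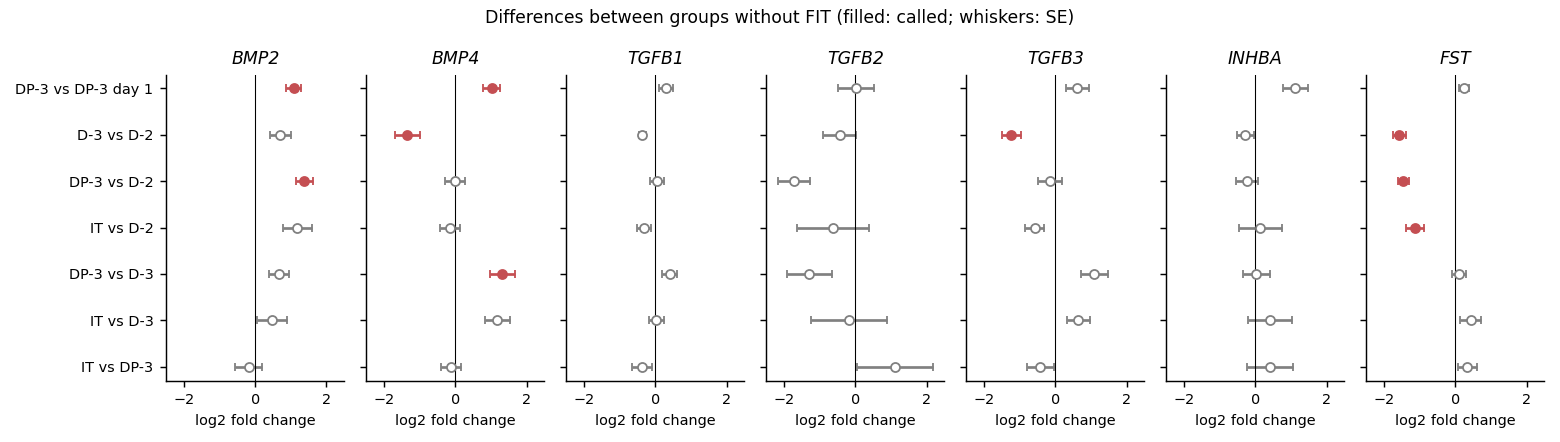
Log2 fold changes of the 7 genes tested in the 7 comparisons without FIT, the first group over the second; whiskers are the SE and filled points are calls. FST was lower than in D-2 in the other 3 day 14 cultures, BMP4 was lower in D-3 than in D-2 and DP-3, and both BMP genes were higher in DP-3 than on day 1.

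Around these genes, 7 lists with 93 genes of the pathway were counted: other ligands, receptors, SMADs, other antagonists, genes of latency and activation, BMP targets, and TGF-β and activin targets. The lists overlap, so their calls are not separate. SMAD6 and SMAD9, for example, are both SMADs and BMP targets, and FSTL3 is both an antagonist and a TGF-β and activin target. Totals over the lists count each gene once. Of the pathway genes tested against FIT, 28 of 68 were called for D-2 (16 higher, 12 lower; 14.6% of all genes), 17 of 73 for D-3 (11 higher, 6 lower; 6.45%), 11 of 70 for DP-3 (7 higher, 4 lower; 4.82%) and 0 of 73 for IT by edgeR's quasi-likelihood test (0% of 21183 genes). In IT, 18 of the 73 had an unadjusted p under 0.05, beside 2693 of 21183 for all genes. There DESeq2 called 12 and limma on log2(FPKM + 0.1) 0, beside 661 and 0 of all genes. Several BMP targets were higher than in FIT, where BMP2 and BMP4 were highest. Of 12 tested, 6 were higher and 1 (DLX3) lower in 2D cells, with a median log2 fold change of 1.42 beside -0.09 for all genes, of which 3.83% were called higher. For D-3, 6 were higher and 1 (MSX1) lower (median 1.87 beside 0.02, with 4.29% called higher), and for DP-3, 4 were higher (1.80 beside -0.06, with 1.66%). For IT, 0 were called (1.03 beside 0.01), 4 had an unadjusted p under 0.05, and DESeq2 called 4 and limma 0, beside the counts over all genes given above. ID3, an inhibitor of differentiation induced by BMPs, had 21.4 ± 3.91 FPKM (SD, n = 3) in FIT, 129 ± 72.7 in IT, and 272 ± 53.8, 178 ± 49.9 and 230 ± 3.27 in DP-3, D-3 and D-2. Its log2 fold change over FIT in the last 3 of these was 3.78 ± 0.23, 2.98 ± 0.27 and 3.57 ± 0.17, each past the test (adjusted p = 0.00101, 0.00172 and 0.000481). SMAD6, which dampens BMP signaling, was called higher, with 0.412 ± 0.232 FPKM in FIT and 3.79 ± 0.821, 3.43 ± 1.40 and 2.43 ± 0.154 in the same 3 groups. SMAD1, a transducer of BMP signals, was called lower, with 12.1 ± 2.22 FPKM in FIT and 3.07 ± 0.674, 2.81 ± 0.247 and 3.16 ± 0.310. ID1, ID3, SMAD6 and SMAD9 are among the genes the study drew from these samples. They were the only BMP targets called higher for DP-3, and were among those called higher for D-2 and D-3. Neither the count of BMP targets nor the tests of ID3 and SMAD6 are therefore independent evidence of the study's direction. The shares over all genes set beside the counts do not allow for this choice. All comparisons with FIT share its 3 libraries.

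Among regulators of the ligands, BMP1, the protease that cuts procollagens and the latency and antagonist proteins, was lower than in FIT (21.0 ± 2.74 FPKM) in DP-3 (6.89 ± 0.357), D-2 (7.75 ± 0.487) and D-3 (8.59 ± 0.811). Of 12 receptors tested in D-2 against FIT, 1 was called, ACVRL1, which was lower and is named after its values were seen. Noggin (NOG), a BMP antagonist, was called against D-2 instead, with 9.04 ± 0.190 FPKM there, 27.0 ± 7.00 in D-3 and 42.4 ± 27.3 in IT (adjusted p = 0.00343 and 0.0176). GDF15, a distant family member, had 0.241 ± 0.0543 FPKM in D-2 and 46.2 ± 23.5 in D-3, a log2 fold change of 7.29 ± 0.53 (adjusted p = 0.000820). It was also called higher than D-2 in IT, at 14.1 ± 10.7 FPKM (adjusted p = 0.0121), and in DP-3, at 2.13 ± 1.08 FPKM (adjusted p = 0.0286). INHBE, the βE subunit gene, was called higher in D-3 than in D-2, with 24.9 ± 1.91 against 2.20 ± 0.150 FPKM (adjusted p = 0.000371).

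Targets of TGF-β and activin were among the calls against D-2. For D-3, 7 of 14 were lower and 0 higher (median log2 fold change -0.90, beside 0.11 for all genes, of which 3.95% were called lower). For IT, 6 of 13 were lower and 0 higher (-1.70 beside 0.10, 2.81% called lower), and for DP-3, 3 of 13 were lower and 1 higher (-0.62 beside 0.03, 0.318% called lower). TAGLN, an actin-binding protein, was called lower in all 3 groups, with 12.02 ± 1.26 FPKM in D-2 and 2.24 ± 0.469 in IT, 3.46 ± 0.566 in D-3 and 3.85 ± 0.555 in DP-3. CCN2, a matrix protein, had 217 ± 35.7 FPKM in D-2 and 31.7 ± 10.97 in D-3 (log2 fold change -3.03 ± 0.26, adjusted p = 0.00133). THBS1, thrombospondin, which can release TGF-β from latency, had 129 ± 20.1 FPKM in D-2 and was called lower in IT (17.2 ± 4.96, adjusted p = 0.00553), D-3 (18.9 ± 3.95, adjusted p = 0.000745) and DP-3 (45.7 ± 1.95, adjusted p = 0.0120). The log2 fold change of TGFB1 itself in these comparisons was -0.36 in D-3, -0.33 in IT and 0.05 in DP-3. All of these comparisons share the 3 D-2 libraries, and the pathway counts against D-2 were added after seeing the data. Without 1 D-2 library, the calls over all 7 lists were 6 to 9 in IT (21 with all libraries), 0 to 3 in DP-3 (7) and 16 to 19 in D-3 (20).

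From day 1 to day 14 in the printed tissue, 12 of 72 pathway genes were called, 6 in each direction, beside 7.56% of all genes (375 higher and 1196 lower). Of 13 TGF-β and activin targets tested, 3 were called higher and 1 lower, beside 375 and 1196 of 20774 genes. CCN2 rose from 38.1 ± 0.265 to 143 ± 13.8 FPKM and POSTN, periostin, from 0.0722 ± 0.0615 to 1.81 ± 0.276, and COL1A1 was the third target to rise. The target called lower was FSTL3, a relative of follistatin that is also on the list of antagonists. It fell from 3.50 ± 2.00 to 0.867 ± 0.160 FPKM. LTBP1, which tethers latent TGF-β to the matrix, rose from 46.8 ± 0.935 to 86.8 ± 9.24 FPKM and LTBP3, its relative, fell from 20.9 ± 1.38 to 8.55 ± 0.346. While BMP2 and BMP4 rose, 0 of 12 BMP targets were called by edgeR's quasi-likelihood test (median -0.26 beside -0.06). Of the 12, 5 had an unadjusted p under 0.05, beside 7446 of 20774 for all genes. DESeq2 called 0 and limma on log2(FPKM + 0.1) called 2, beside 2042 and 2280 of all genes.

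**Figure D5:**
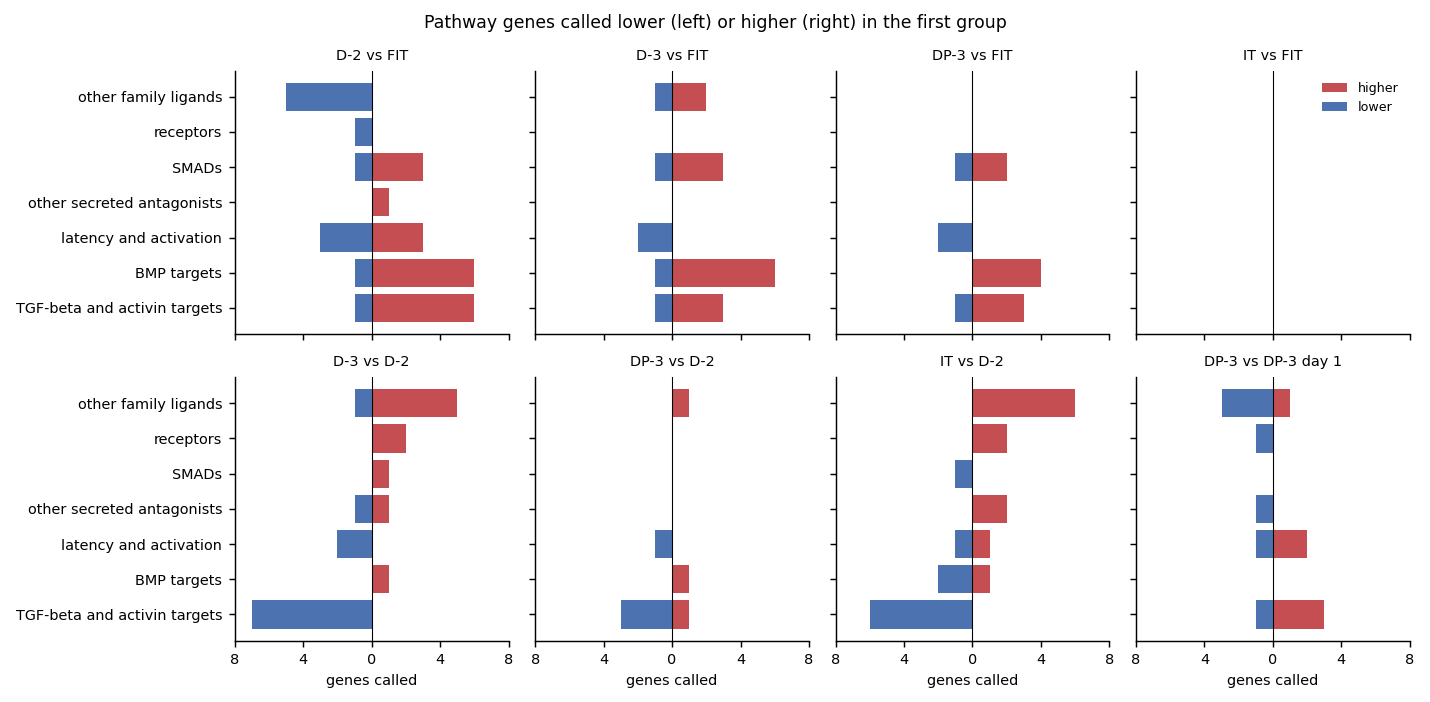
Number of genes of the 7 pathway lists called higher (right) or lower (left) in the first group of 8 comparisons, by the quasi-likelihood test of edgeR. Genes shared by lists are counted in each. Calls among BMP targets against FIT were 6 higher and 1 lower for both D-2 and D-3, with 4 higher for DP-3, and TGF-β and activin targets were lower in D-3 and IT than in D-2.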

How the data were processed

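RNA from 18 libraries of Saos-2 cultures and tumors, 3 in each of 6 groups, was analysed. Groups and replicate numbers came from the sample labels. Per the labels, poly(A) RNA was made into dUTP libraries. The submitters' processing notes name cutadapt 1.9, HISAT2 2.0.4 and StringTie 1.3.4d, as well as DESeq2 and edgeR. The genome build and the use of strand in counting are not given in the sources used here. The deposited FPKM were computed by the authors with StringTie. The deposited estimated counts, whole numbers taken to be about 4 per read pair, come from the same table, and the sources used here do not say how they were made. Of 212148 counts between 1 and 40, 35.0% were multiples of 4. Gene positions are those of the deposited table. Of 48223 genes also in GENCODE 29 (GRCh38), 99.9% overlapped and 67.9% had the same ends.

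Levels and ratios were computed from FPKM. For every comparison a model was fitted to the 6 libraries concerned with edgeR 4.0.16 (TMM scaling, estimateDisp, glmQLFit and glmQLFTest with default settings) in R 4.3.3. Testing was limited to genes that reached 0.1 FPKM in 3 or more of the 6. Adjusted p are Benjamini-Hochberg values over all genes tested, and DEGs (calls) had an adjusted p below 0.05 and a fold change of at least 2. Log2 fold changes are on the TMM scale and are printed with the SE. Libraries of a group were called apart from another group where their FPKM did not overlap. The limit of detection was 12 counts (taken as 3 read pairs), 0.152 to 0.506 CPM. The genes and lists were chosen with earlier results of these data known. Named pathway genes were, for each list and comparison, up to 4 calls with the largest change and a mean of at least 1 FPKM in a group. The genes most like BMP2, BMP4 and INHBA had the highest Pearson r with them.

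Other settings were DESeq2 1.42.0, limma 3.58.1 on log2 FPKM with pseudocounts of 0.1 and 1, omission of each library in turn, 1 fit of all 18 libraries, a block for the replicate number, scaling by median-of-ratios, and either no filter or one at 1 FPKM. Counts divided by 4, the pathway counts against D-2 and the levels without a FIT library were added after seeing the data. The code was tested on simulated counts. Sequences were taken from RefSeq (8 of the 10 genes matched). The keratinocyte marker LOR was not matched. Python 3.11.15, numpy 2.4.6, pandas 2.3.3 and matplotlib 3.10.9 were used. 1 gene of the target lists is not reported here.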

Additional observations from a re-analysis of the deposited data

How the results depend on the processing

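Of 49 tested values of the 10 genes, the direction turned under at least 1 setting for 19, none of them among the 17 with an unadjusted p under 0.05. Among the values given above, BMP4 turned in DP-3 against D-2 with limma (0.026 on log2(FPKM + 0.1), 0.013 on log2(FPKM + 1)), with an FPKM minimum of 1 (0.032) and without 1 library (-0.23 to 0.27). BMP4 in IT against D-2 turned with limma (0.043 and 0.022) and without 1 library (-0.31 to 0.13), and TGFB1 in DP-3 against D-2 without 1 library (-0.19 to 0.23). FPKM scaling moved the median log2 fold change of all genes by -0.233 (DP-3 against DP-3 day 1) to 0.196 (D-3 against D-2) relative to TMM, median-of-ratios by at most 0.0162. With limma on log2(FPKM + 0.1), the calls over all genes (higher, lower) moved from 2946 and 800 to 3973 and 389 in D-3 against D-2, from 375 and 1196 to 161 and 2119 in DP-3 against DP-3 day 1, from 409 and 1478 to 216 and 2296 in DP-3 against D-3, from 220 and 83 to 465 and 65 in IT against DP-3, and from 332 and 633 to 228 and 828 in DP-3 against FIT. Calls among the 10 genes changed as follows. In DP-3 against DP-3 day 1 (2 calls) there were 0 with limma at both pseudocounts (0.1 and 1) and with an FPKM minimum of 1, 1 with 1 fit of all 18 libraries, 4 with no filter, and 0 to 2 without 1 library. In D-3 against D-2 (3 calls) there was 1 with limma on log2(FPKM + 1), and 2 to 3 without 1 library. In DP-3 against D-2 (2) there was 1 with limma on log2(FPKM + 1), and 0 to 3 without 1 library. In IT against D-2 (1) there were 2 with DESeq2 and with 1 fit of all, 0 with limma on log2(FPKM + 1) and with an FPKM minimum of 1, and 0 to 2 without 1 library. In DP-3 against D-3 (1) there were 2 with DESeq2, 0 with limma on either scale, and 0 in every fit without 1 library. In IT against D-3 (0) DESeq2 gave 1.

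Pathway genes called against FIT in D-2 (28) were 15 with limma on log2(FPKM + 1), 18 with an FPKM minimum of 1 and 21 to 31 without 1 library. In D-3 (17) they were 26 with DESeq2 and 9 to 22 without 1 library, the lowest without D-3 replicate 3. In DP-3 (11) they were 20 with DESeq2 and 8 to 17 without 1 library, the highest without FIT replicate 3. In IT (0) they were 12 with DESeq2, 3 with no filter, 11 with 1 fit of all libraries and 0 without any 1 library. Over time in DP-3 (12) they were 7 with limma on log2(FPKM + 1) and 7 to 11 without 1 library, the lowest without DP-3 day 1 replicate 3. Against D-2, D-3 (20) had 8 with limma on log2(FPKM + 1), 12 with an FPKM minimum of 1 and 15 to 19 without 1 library. DP-3 (7) had 4 with limma on log2(FPKM + 1) and 0 to 6 without 1 library (0, 2 and 3 without D-2 replicates 2, 1 and 3, and 4 without DP-3 replicate 1). IT (21) had 10 with limma on log2(FPKM + 1) and 6 to 22 without 1 library (6, 8 and 9 without D-2 replicates 1, 2 and 3, and 13 without IT replicate 1). The cause of these changes was not tested, beyond the smaller number of libraries or genes in some fits.

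The replicate numbers showed no pairing of the libraries: deviations of same-numbered libraries correlated at -0.145 to 0.198, and in 0 of 15 pairs of groups were all 3 correlations above 0.1. This cannot show whether IT and FIT libraries with different numbers came from the same tumor. With the replicate block, the calls among the 10 genes were 1 in DP-3 against DP-3 day 1 (BMP4 not called, adjusted p = 0.0555), 1 in DP-3 against D-2 (BMP2 not called, adjusted p = 0.114) and 0 in DP-3 against D-3 (BMP4 not called, adjusted p = 0.0740), and the pathway calls in DP-3 against D-2 were 0. Depth limits LEFTY1, INHBB and GREM1 most, since 12 counts were 0.506 CPM in FIT replicate 3. With TMM-scaled CPM in place of FPKM, 9 of the 10 genes had the same highest group (TGFB1 moved from FIT to DP-3) and 5 the same full order. With a pseudocount of 1, the 3 genes most like BMP2 stayed the same, and 1 of 3 did for BMP4 and for INHBA.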
